A study of Mus musculus with 16 samples.

Results

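The genes that copy DNA in S phase were followed as 1 group of 41 genes across mast cells of 2 genotypes and 4 treatments. The group was a list of gene symbols chosen by function, matched through Ensembl identifiers, with no threshold on a measured value. All 41 were found among the 39179 gene identifiers of the count tables, and all 41 were among the 13305 genes that passed the filter on low counts. By role they were 6 subunits of the MCM helicase (Mcm2 to Mcm7), 4 origin licensing factors (Orc1, Orc6, Cdc6, Cdt1), 6 factors of helicase activation (Mcm10, Cdc45, Gins1 to Gins4) and 5 genes of the sliding clamp and its loader (Pcna, Rfc2 to Rfc5). There were also 7 polymerase and primase genes (Pola1, Pola2, Prim1, Pold1, Pold2, Pole, Pole2), 4 genes of single-strand binding and flap processing (Rpa1, Rpa2, Fen1, Lig1) and 4 of nucleotide supply (Rrm1, Rrm2, Tyms, Tk1). The remaining members were 4 G1/S regulators (E2f1, Ccne1, Ccne2, Cdc25a) and Uhrf1, which reads hemimethylated DNA behind the fork.

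The cells were bone marrow-derived mast cells (BMMCs), grown from the marrow of male C57BL/6 mice aged 8 to 10 weeks and cultured for 4 weeks with stem cell factor and IL3. They were either PEP+/+ or PEP-/-, PEP being the tyrosine phosphatase encoded by Ptpn22. Every sample, controls included, was sensitized with IgE, at 0.05 µg/ml by the labels, for 3 h. The methods text of the study gives a higher concentration of IgE, and which one was used is not known. The 4 treatments were IgE alone, IgE with the antigen dinitrophenol (DNP, 200 ng/ml for 1 h), IgE with the glucocorticoid dexamethasone (DEX, 100 nM for 8 h), and IgE with DEX and DNP. Each of the 8 conditions had 2 samples, so 4 samples stood behind each treatment and 8 behind each genotype. How many mice or cultures the samples came from was not given, so the p-values measure the spread between these samples. The labels gave a number to one sample of each condition and a letter to the other, and these are called the numbered and the lettered set, or replicate 1 and replicate 2.

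Before S phase, the origin recognition complex with Cdc6 and Cdt1 loads the MCM helicase onto DNA. Cdc45 and the GINS complex then switch the helicase on, after which primase and the polymerases copy both strands, held to DNA by the clamp PCNA. Many of these genes are switched on together at the G1/S transition by E2F transcription factors, E2F1 among them, once cyclin D and cyclin E kinases have inactivated the retinoblastoma protein. Mature mast cells in tissue divide little, whereas BMMCs kept in growth factors still cycle, and glucocorticoids are known to slow the growth of many blood cell types.

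Total counts on genes lay between 8612531 and 22143526 per sample. Ptpn22 stood at 11.3 to 175 CPM (counts scaled to the size of the library) in the 8 PEP+/+ samples and at 0 to 3.03 CPM in the 8 PEP-/- samples. Tsc22d3 and Fkbp5, known glucocorticoid targets, stood at 43.9 to 135 and 72.5 to 124 CPM without DEX and at 725 to 1277 and 745 to 1077 CPM with it. The summed level of 10 mast cell markers was 63200 to 104000 CPM over the 16 samples. Basophil markers (2 genes) summed to 48.5 to 122 CPM in the numbered and 19.8 to 45.4 CPM in the lettered set, and lymphoid and dendritic markers (7 genes, of which 3 were at 0 in every sample) to 1.95 to 7.38 and 6.31 to 19.7 CPM. Neutrophil and myeloid progenitor markers (10 genes, of which 1 was at 0 in every sample) summed to 2.49 to 13.2 CPM in the numbered set and 0.562 to 2.37 CPM in the lettered set. Erythroid and megakaryocyte markers (7 genes) summed to 1940 to 2900 CPM in the numbered set and 3020 to 3920 CPM in the lettered set, nearly all of it Itga2b.

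The members were expressed in every condition, at levels that differed widely between genes. Per kilobase of exon, in PEP+/+ cells with IgE alone, the mean level was highest for the clamp gene Pcna at 77.2 CPM per kb, followed by Rfc2 at 71.8, Mcm3 at 49.6 and the ribonucleotide reductase subunit Rrm2 at 36.5. Lowest on this scale were Cdc6 at 2.97, Pole at 2.97, the phosphatase gene Cdc25a at 2.54, Orc1 at 1.46 and the flap endonuclease gene Fen1 at 0.877 CPM per kb. Pcna lay above Rfc2 in the numbered sample and below it in the lettered one, so the order of these 2 genes was within the spread. Several members overlap a gene on the opposite strand, among them Rfc2 with Lat2, Mcm7 with Cops6, Orc6 with Vps35, Cdc45 with Ufd1, Gins2 with Gse1, Rfc4 with Eif4a2, Rfc5 with Wsb2, Lig1 with Zswim9, Tk1 with Afmid, Ccne2 with Ints8 and Fen1 with Tmem258. Whether the counting used the strand was not given in the sources used here, so the values of these members are uncertain. Fen1, with a median of 11 counts per sample, had the fewest counts, and Lat2, a mast cell adaptor, had a median of 12188 counts against 4965 for Rfc2.

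The summed level of the 41 genes was 1403 to 3516 CPM (median 2158) in the PEP+/+ samples and 1185 to 2343 CPM (median 1574) in the PEP-/- samples. By treatment the sums were 1602 to 3309 CPM with IgE alone, 1576 to 3516 with DNP, 1185 to 1955 with DEX and 1223 to 2184 with both agents. These ranges overlap between genotypes and between treatments. The highest sample of a member was PEP+/+ IgE replicate 1 for 27 members and PEP+/+ IgE DNP replicate 1 for 10. The lowest was PEP-/- IgE DNP DEX replicate 2 for 16 members, PEP-/- IgE DNP replicate 2 for 10 and PEP-/- IgE DEX replicate 2 for 8. In bulk RNA a smaller share of cells in S phase and fewer of these transcripts per cell cannot be told apart.

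The 2 sets differed in the same direction in every condition. The summed level was 1527 to 3516 CPM in the numbered and 1185 to 2297 CPM in the lettered samples. Of the 41 members 38 were lower in the lettered set at an adjusted p under 0.05 and 0 were higher, with a median log2 difference of -0.73. Of all genes 32.2% were lower there at this threshold, and the median over all genes was 0.006. Pold1, Pold2 and Rfc2 were the members whose sets did not differ at the threshold. Few members passed a test in which this difference was part of the error, and many did once the set was a term in the fit. Both counts are therefore given for each main comparison, first without and then with the set, beside the differences within same-set pairs of samples.

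**Figure D1:**
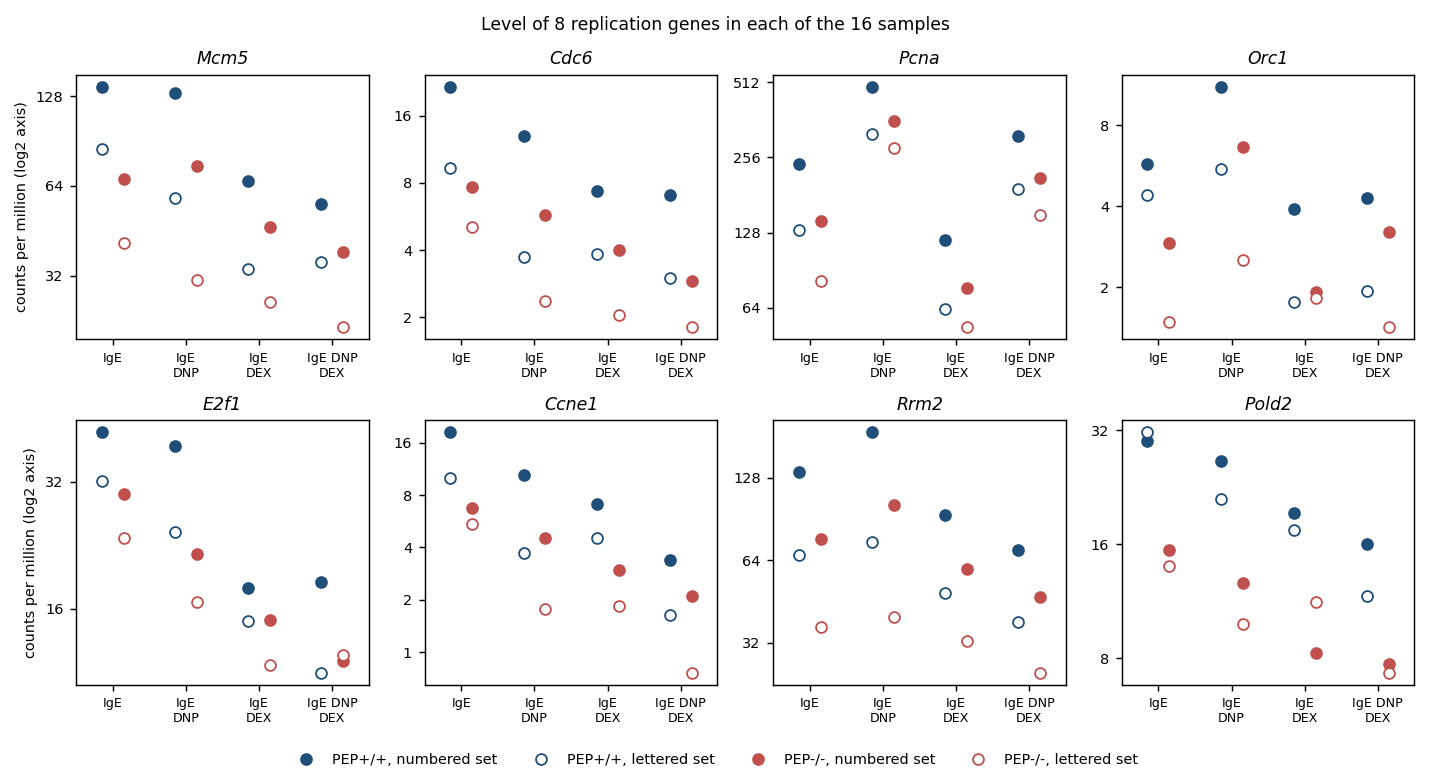
Level in CPM (log2 axis) of 8 of the 41 genes in all 16 samples, by treatment, with colour for the genotype, numbered samples as filled and lettered samples as open points. Pcna in the DNP groups spans 151 to 491 CPM against 53.7 to 240.1 CPM without DNP, and E2f1, Mcm5 and Ccne1 are lower with DEX within each genotype and set.

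The promoters of the members were searched for short words that the E2F factors and the NF-Y factor are known to bind. RefSeq windows on GRCm38.p6, from 250 bases before to 50 bases after the annotated start, matched 34 of the 41 members. At least 1 of the E2F words TTTGGCGC, TTTCGCGC, TTTCCCGC and TTTGCCGC, on either strand, stood in the window of 15 of these 34 members (44.1%), against 2.6% of the 27025 genes with a window. The CCAAT word, on either strand, stood in the window of 21 members (61.8%), against 41.1% of all genes. The median content of G and C was 60.7% in member windows and 53.3% over all genes, taking the highest window of a gene. The part of this difference in the shares of words was not tested. The members were chosen as replication genes, many of which are known E2F targets, and a match describes the letters and not binding. Windows of 4 members are shown with E2F words in capitals. Mcm5 and Mcm6 have words that overlap between the strands, Cdc6 has a single word, and Pcna, the member that antigen raised most, has none of these letters in its window.
Mcm5, chr8:75109259-75109558, plus strand: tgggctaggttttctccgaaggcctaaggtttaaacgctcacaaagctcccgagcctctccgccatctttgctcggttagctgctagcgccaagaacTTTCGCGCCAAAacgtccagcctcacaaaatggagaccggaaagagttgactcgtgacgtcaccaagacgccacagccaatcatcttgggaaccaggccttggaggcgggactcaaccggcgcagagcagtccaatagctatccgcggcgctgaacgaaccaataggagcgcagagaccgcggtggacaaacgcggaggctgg
Mcm6, chr1:128359656-128359955, minus strand: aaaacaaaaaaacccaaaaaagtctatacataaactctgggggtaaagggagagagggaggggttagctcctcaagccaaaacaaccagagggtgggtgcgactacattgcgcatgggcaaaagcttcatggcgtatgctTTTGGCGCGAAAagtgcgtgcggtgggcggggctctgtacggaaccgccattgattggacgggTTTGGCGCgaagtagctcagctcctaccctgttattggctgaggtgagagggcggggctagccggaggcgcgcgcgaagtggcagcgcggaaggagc
Cdc6, chr11:98907901-98908200, plus strand: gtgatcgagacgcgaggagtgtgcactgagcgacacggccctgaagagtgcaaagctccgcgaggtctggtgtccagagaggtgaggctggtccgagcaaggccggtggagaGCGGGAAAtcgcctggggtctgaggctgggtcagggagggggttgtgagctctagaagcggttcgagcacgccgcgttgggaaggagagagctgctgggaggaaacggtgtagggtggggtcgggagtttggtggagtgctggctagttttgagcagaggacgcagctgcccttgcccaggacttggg
Pcna, chr2:132253131-132253430, minus strand: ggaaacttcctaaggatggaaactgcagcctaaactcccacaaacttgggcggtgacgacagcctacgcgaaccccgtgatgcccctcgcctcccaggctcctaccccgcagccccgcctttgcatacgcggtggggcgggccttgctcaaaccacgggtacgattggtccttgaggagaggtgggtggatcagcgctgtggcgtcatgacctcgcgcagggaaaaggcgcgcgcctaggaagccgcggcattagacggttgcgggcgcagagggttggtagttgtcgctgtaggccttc
In Mcm5 the words begin 153 and 149 bases before the start and share bases, so the capitals run together. Mcm6 has such a pair at 110 and 106 bases and 1 more word at 47 bases before the start, and the word of Cdc6 begins at 138 bases. These distances hold for the RefSeq starts only. The GENCODE annotation begins Cdc6 at 98907801, ahead of its whole window, and Pcna at 132253314, inside its window. The bases just after the RefSeq start lay in a GENCODE transcript of the gene in 3 of 5 windows checked. With DEX in the absence of DNP the median log2 fold change, with the set in the fit, was -0.73 over the 15 members with an E2F word and -0.62 over the 19 without. With PEP loss these medians were -0.60 and -0.59. No test of this difference was made.

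DNP was compared with no DNP to see what 1 h of antigen on sensitized cells did to these genes. Pcna was higher in every same-set pair, and Rpa2, Ccne1 and Cdc6 were lower in every pair. Without DEX, 1 member rose and 1 fell without the set in the fit, and 3 rose and 13 fell with it, at medians over all 41 of -0.18 and -0.21 on the log2 scale. Of all genes tested 9.07% rose and 7.58% fell without the set in the fit, and 18.6% rose and 19.3% fell with it. With DEX present, 2 members rose and 0 fell without the set in the fit, and 2 rose and 12 fell with it, at medians of -0.20 and -0.18. The background was then 7.19% of all genes up and 5.42% down, or 18.4% and 19.2% with the set in the fit. In both comparisons, with the set in the fit, the share of members that rose was thus below, and the share that fell above, that of all genes. Without the set in the fit both shares were below those of all genes, so the excess of falls rests on the fit with the set.

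Pcna, the sliding clamp, had the highest fold change of the members in both DNP comparisons. In PEP+/+ cells Pcna was counted at 240.1 and 131 CPM with IgE, 491 and 318 with added DNP, 119.5 and 63.3 with added DEX and 310.4 and 191 with both agents. Values of Pcna in PEP-/- cells were 142 and 82.3 CPM for IgE, 356 and 279.7 for DNP, 76.6 and 53.7 for DEX and 212 and 151 for both. In each pair of values the numbered sample is given first, here and for the genes that follow. Every DNP sample lay above the sample of the same genotype, set and DEX treatment that had no DNP, and the 4 samples with and the 4 without DNP did not overlap, either without or with DEX. The log2 fold change without DEX was 1.31 (SE 0.31, adjusted p = 0.012), or 1.35 (SE 0.11, adjusted p = 1.62e-07) with the set in the fit, a 2.55-fold rise. With DEX it was 1.46 (SE 0.31, adjusted p = 0.00955), and 1.48 (SE 0.11, adjusted p = 1.27e-07) with the set in the fit.

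The licensing factors did not move together. For Cdt1 the PEP+/+ samples gave 28.8 and 25.2 CPM without further agent, 26.8 and 24.1 after DNP, 15.3 and 8.20 after DEX and 26.4 and 18.4 after both. For Cdt1 the PEP-/- samples gave 13.8 and 11.8, 22.8 and 20.9, 11.5 and 7.32 and 18 and 18.8 CPM. Cdt1, which brings the MCM helicase to origins, rose with DNP in DEX-treated cells, where the 4 samples with both agents lay above the 4 with DEX alone. There its log2 fold change was 0.94 (SE 0.22, adjusted p = 0.0165), and without DEX it was 0.34 (SE 0.22, adjusted p = 0.365). Orc1 stood at 5.73 and 4.42 CPM with IgE alone, 11.2 and 5.51 with DNP, 3.91 and 1.77 with DEX and 4.30 and 1.94 with both in PEP+/+ cells. Orc1 in PEP-/- cells stood at 2.91 and 1.49 CPM, 6.65 and 2.53, 1.92 and 1.83 and 3.21 and 1.43 in the same order. Orc1, the largest subunit of the origin recognition complex, was higher with DNP in all 4 pairs without DEX, but the groups overlapped. Its log2 fold change was 0.89 (SE 0.45, adjusted p = 0.232) without DEX and passed only with the set in the fit, at 0.83 (SE 0.21, adjusted p = 0.00526). With DEX present it was 0.21 (SE 0.46, adjusted p = 0.834).

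Cdc6, the ATPase that loads the helicase, was lower with DNP in all 8 same-set pairs. In PEP+/+ cells Cdc6 was counted at 21.7 and 9.37 CPM with IgE, 13.1 and 3.71 with added DNP, 7.36 and 3.83 with added DEX and 7.03 and 3.00 with both agents. Values of Cdc6 in PEP-/- cells were 7.65 and 5.09 CPM for IgE, 5.74 and 2.37 for DNP, 3.99 and 2.03 for DEX and 2.89 and 1.81 for both. The groups with and without DNP overlapped, and the numbered sample was the higher one in every condition. The log2 fold change was -0.77 (SE 0.49, adjusted p = 0.371) without DEX, and -0.85 (SE 0.18, adjusted p = 0.0015) with the set in the fit. For Orc6 the PEP+/+ samples gave 50.8 and 39.6 CPM without further agent, 45.5 and 24.6 after DNP, 29.1 and 23.6 after DEX and 27.1 and 19.7 after both. For Orc6 the PEP-/- samples gave 27 and 23.5, 23 and 14.5, 20.3 and 18.5 and 16.5 and 18.1 CPM. Orc6, a further subunit of the origin recognition complex, had log2 fold changes of -0.40 and -0.17 with DNP, and passed without DEX only with the set in the fit (adjusted p = 0.0235).

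Rpa2 stood at 58.7 and 47.2 CPM with IgE alone, 39.3 and 23 with DNP, 40.4 and 28.5 with DEX and 32.4 and 23.9 with both in PEP+/+ cells. Rpa2 in PEP-/- cells stood at 31.9 and 27 CPM, 21.6 and 11.1, 28.6 and 27 and 17.3 and 18.2 in the same order. Rpa2, a subunit of the single-strand binding protein, was lower with DNP in all 8 pairs and was the 1 member that fell at the threshold in both fits without DEX. Its log2 fold change was -0.81 (SE 0.24, adjusted p = 0.0389), and -0.85 (SE 0.14, adjusted p = 0.000301) with the set in the fit. With DEX present it was -0.47 (adjusted p = 0.24), and -0.46 (adjusted p = 0.0208) with the set in the fit.

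In PEP+/+ cells Ccne1 was counted at 18.4 and 9.98 CPM with IgE, 10.5 and 3.71 with added DNP, 7.10 and 4.54 with added DEX and 3.39 and 1.62 with both agents. Values of Ccne1 in PEP-/- cells were 6.74 and 5.45 CPM for IgE, 4.51 and 1.76 for DNP, 2.96 and 1.83 for DEX and 2.11 and 0.761 for both. Ccne1, the cyclin E1 gene, was lower with DNP in all 8 pairs, while the groups overlapped. Without DEX its log2 fold change was -0.98 (SE 0.45, adjusted p = 0.185), and -1.07 (SE 0.19, adjusted p = 0.000437) with the set in the fit. With DEX present it was -1.0 (SE 0.23, adjusted p = 0.0038) with the set in the fit, and -0.99 (adjusted p = 0.216) without it.

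Of the polymerase and clamp loader genes, Pold1, Pold2 and Rfc3 had log2 fold changes with DNP of -0.42 (adjusted p = 0.0567), -0.38 (adjusted p = 0.163) and -0.59 (adjusted p = 0.131) without DEX. With DEX present Pold1, Pold2 and Pole had -0.38 (adjusted p = 0.0958), -0.39 (adjusted p = 0.168) and -0.51 (adjusted p = 0.242). All of these passed with the set in the fit, at adjusted p between 0.00547 and 0.0455. For Gins3 the PEP+/+ samples gave 16.7 and 9.63 CPM without further agent, 8.42 and 4.73 after DNP, 10.2 and 8.87 after DEX and 9.50 and 6.93 after both. For Gins3 the PEP-/- samples gave 8.10 and 6.89, 6.73 and 4.35, 6.95 and 6.41 and 6.02 and 6.66 CPM. Gins3, a subunit of the GINS complex, was at -0.72 (adjusted p = 0.078) without DEX and -0.73 (adjusted p = 0.00303) with the set in the fit, and at -0.15 (adjusted p = 0.78) with DEX present.

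On the upper side the next estimates were small. Without DEX Mcm6 was at 0.23 (adjusted p = 0.816). With DEX present Rfc2, Tyms and Gins1 were at 0.20 (adjusted p = 0.454), 0.16 (adjusted p = 0.711) and 0.31 (adjusted p = 0.723), and none of the 4 passed with the set in the fit either. Gins1 stood at 11.8 and 6.33 CPM with IgE alone, 9.93 and 4.28 with DNP, 4.24 and 2.78 with DEX and 6.51 and 2.81 with both in PEP+/+ cells. Gins1 in PEP-/- cells stood at 5.46 and 2.57 CPM, 6.32 and 2.75, 1.92 and 2.24 and 2.27 and 2.57 in the same order. Gins1, a GINS subunit, was thus among the lower members, at 1.92 to 6.32 CPM (median 2.57) over the 8 PEP-/- samples.

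Rrm2, the regulated subunit of ribonucleotide reductase, was the member whose response to DNP was called different between cells without and with DEX. In PEP+/+ cells Rrm2 was counted at 135 and 67.1 CPM with IgE, 188 and 74.6 with added DNP, 93.7 and 48.7 with added DEX and 69.7 and 38 with both agents. Values of Rrm2 in PEP-/- cells were 76.9 and 36.6 CPM for IgE, 102 and 39.7 for DNP, 59.6 and 32.7 for DEX and 46.9 and 24.9 for both. All 4 DNP samples lay above their partners without DEX, and all 4 lay below them with DEX. With the set in the fit the log2 fold changes were 0.30 (SE 0.10, adjusted p = 0.0303) and -0.38 (SE 0.10, adjusted p = 0.0106), and without it 0.35 (adjusted p = 0.719) and -0.38 (adjusted p = 0.663). The difference between the responses (the DNP by DEX interaction) was -0.68 (SE 0.14, adjusted p = 0.0281) with the set in the fit, and 0.496% of all genes had a positive and 1.07% a negative interaction. Leaving out any of 12 of the 16 samples ended the call, at adjusted p between 0.0507 and 0.132. Without the set in the fit edgeR called 0 members (0 with an unadjusted p under 0.05), while 8 genes in all had a positive and 36 a negative interaction.

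Over the 8 same-set pairs, 14 members were lower with DNP in all 8, against 19.1% of all genes, and 2 were higher in all 8, Pcna and Mcm6, against 18.5% of all genes. Those lower in all 8 were Mcm3, Mcm7, Orc6, Cdc6, Mcm10, Pold1, Pold2, Pole, Rpa1, Rpa2, Fen1, Tk1, Ccne1 and Uhrf1. The median of the 41 differences within a pair lay between -0.41 and -0.09 on the log2 scale.

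**Figure D2:**
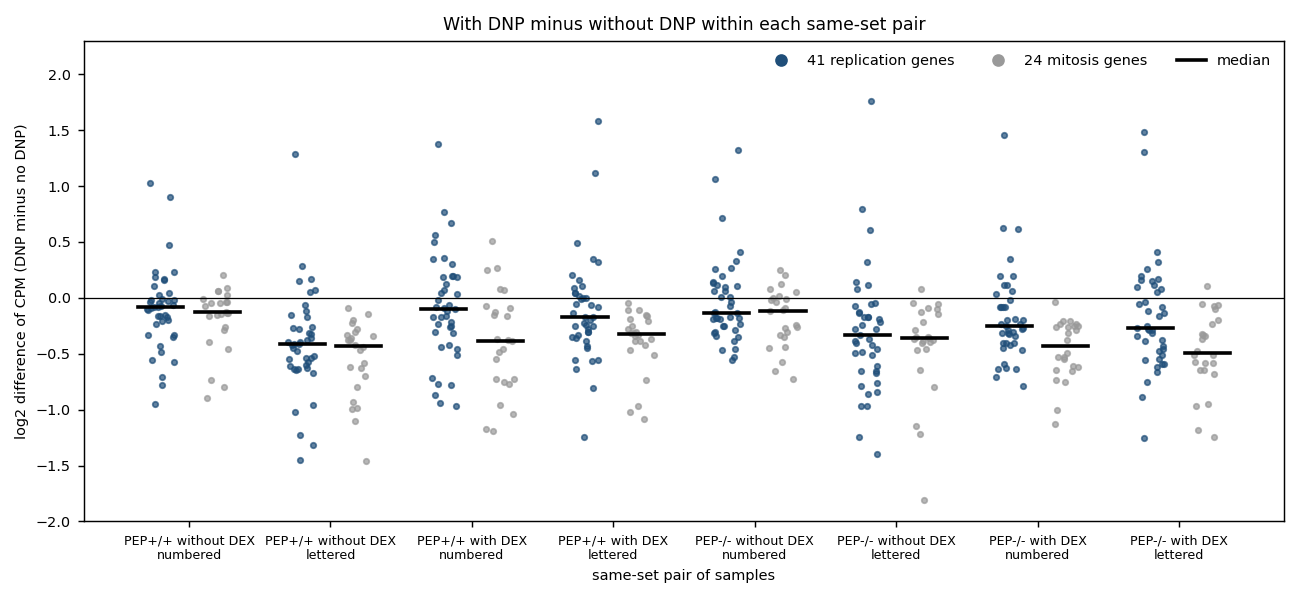
Log2 difference of CPM between the sample with DNP and the same-set sample without it, for the 41 replication genes and 24 mitosis genes, in 8 pairs. The medians (bars) of the replication genes lie between -0.41 and -0.09, and the highest replication gene of each pair lies between 1.03 and 1.76.

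DEX was compared with no DEX to see what the glucocorticoid did to the same genes. Nearly all estimates were lower. In the fit with the set 5 of the 6 helicase genes, E2f1, both cyclin E genes, Lig1 and Rfc3 were among those that fell in the absence of DNP, and no member rose. Without DNP, 7 members fell and 0 rose without the set in the fit, and 30 fell and 0 rose with it. The medians were -0.65 and -0.66 on the log2 scale, a 1.57-fold and 1.58-fold lower level, 40 of 41 estimates were negative, and the median over all genes was 0.001 and 0.002. Of all genes 5.4% rose and 3.98% fell without the set in the fit, and 12.9% and 13.8% with it. With DNP, 4 members fell and 0 rose, or 29 fell and 0 rose with the set in the fit, at medians of -0.72 and -0.67. The background was then 5.67% of all genes up and 4.99% down, or 15.9% and 17.4%. The DEX comparisons have no sample in common with each other, but each shares its samples with the DNP comparisons.

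By role, with the set in the fit and no DNP, 5 of 6 helicase genes fell, 3 of 4 licensing factors, 4 of 6 activating factors, 3 of 5 clamp and clamp loader genes and 5 of 7 polymerase and primase genes. Of the single-strand binding and flap processing genes 2 of 4 fell, and all 4 nucleotide supply genes, 3 of 4 G1/S regulators and Uhrf1 fell. The 11 members that did not pass were Mcm7, Orc1, Gins3, Gins4, Rfc4, Rfc5, Pola2, Pole, Rpa2, Fen1 and Cdc25a.

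E2f1, a transcription factor of the G1/S transition, had the smallest p of the members without DNP. For E2f1 the PEP+/+ samples gave 41.9 and 32.2 CPM without further agent, 38.9 and 24.3 after DNP, 17.9 and 15 after DEX and 18.5 and 11.3 after both. For E2f1 the PEP-/- samples gave 30.0 and 23.6, 21.6 and 16.6, 15.1 and 11.8 and 12 and 12.5 CPM. Without DNP every DEX sample lay below every sample without DEX. With DNP each DEX sample lay below its partner, but the groups overlapped. The log2 fold change was -1.08 (SE 0.21, adjusted p = 0.00785) without DNP, a 2.11-fold lower level, and -0.87 (SE 0.22, adjusted p = 0.0252) with DNP.

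Lig1 stood at 106 and 76.9 CPM with IgE alone, 104 and 69 with DNP, 43.1 and 33 with DEX and 49.1 and 37 with both in PEP+/+ cells. Lig1 in PEP-/- cells stood at 57.8 and 49.6 CPM, 63.7 and 44, 37.2 and 24.9 and 29.8 and 26.6 in the same order. Lig1, the ligase that joins Okazaki fragments, also had no overlap between the groups without DNP and was lower in all 8 pairs. Its log2 fold change was -1.03 (SE 0.21, adjusted p = 0.00932) without DNP and -0.97 (SE 0.21, adjusted p = 0.0133) with DNP. In PEP+/+ cells Rfc3 was counted at 22.2 and 16.1 CPM with IgE, 14.9 and 10.1 with added DNP, 8.14 and 8.33 with added DEX and 8.59 and 4.56 with both agents. Values of Rfc3 in PEP-/- cells were 11.7 and 10.2 CPM for IgE, 9.11 and 5.67 for DNP, 6.17 and 6.00 for DEX and 3.83 and 4.19 for both. Rfc3, a subunit of the clamp loader, likewise had no overlap without DNP. It had log2 fold changes of -1.03 (SE 0.24, adjusted p = 0.0194) and -0.91 (SE 0.25, adjusted p = 0.0362).

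The other members that passed in both fits were Cdt1 at -0.82 (adjusted p = 0.0374), the polymerase delta subunits Pold2 at -0.67 (adjusted p = 0.0265) and Pold1 at -0.50 (adjusted p = 0.0423), and Rfc2 at -0.52 (adjusted p = 0.0462), all without DNP and in log2 units. With DNP Pold2 was at -0.68 (adjusted p = 0.0251), Pold1 at -0.46 (adjusted p = 0.0567), Cdt1 at -0.22 (adjusted p = 0.635) and Rfc2 at -0.29 (adjusted p = 0.263). For Rfc2 the PEP+/+ samples gave 421 and 484 CPM without further agent, 397 and 502 after DNP, 282 and 340.2 after DEX and 448 and 339.9 after both. For Rfc2 the PEP-/- samples gave 428 and 505, 429.5 and 463, 313 and 344 and 309 and 372 CPM. The overlapping gene Lat2 had a log2 fold change of -0.55 (adjusted p = 0.0391) without DNP, close to that of Rfc2, and its part in the value of Rfc2 was not tested.

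Among the helicase genes the sets lay further apart than in E2f1, at -0.82 for Mcm2, -0.89 for Mcm5 and -0.96 for Mcm6 against -0.38 for E2f1 (log2 difference, lettered minus numbered). Mcm2 stood at 117 and 76.6 CPM with IgE alone, 112 and 48.7 with DNP, 55.1 and 28.1 with DEX and 32 and 28.1 with both in PEP+/+ cells. Mcm2 in PEP-/- cells stood at 54.6 and 33.2 CPM, 58.5 and 25.3, 31.8 and 17.7 and 25.4 and 14.8 in the same order. Mcm2 was lower with DEX in all 8 pairs, and its groups overlapped. Its log2 fold change without DNP was -1.02 (SE 0.38, adjusted p = 0.141), and -1.05 (SE 0.14, adjusted p = 4.69e-05) with the set in the fit. In PEP+/+ cells Mcm5 was counted at 138 and 85.1 CPM with IgE, 131 and 58.5 with added DNP, 66.5 and 33.7 with added DEX and 55.7 and 35.7 with both agents. Values of Mcm5 in PEP-/- cells were 67.7 and 41.1 CPM for IgE, 74.4 and 31 for DNP, 46.6 and 26.1 for DEX and 38.5 and 21.6 for both. Mcm5 was likewise lower in all 8 pairs with overlapping groups. It gave -0.87 (SE 0.39, adjusted p = 0.258), and -0.90 (SE 0.11, adjusted p = 2.28e-05) with the set in the fit. For Mcm6 the PEP+/+ samples gave 193 and 98 CPM without further agent, 227 and 103 after DNP, 103 and 48.6 after DEX and 118 and 68.3 after both. For Mcm6 the PEP-/- samples gave 112 and 59.2, 142 and 65.5, 77.1 and 43.2 and 83.3 and 48.2 CPM. Mcm6 was also lower in all 8 pairs, at -0.72 (adjusted p = 0.406), and -0.73 (adjusted p = 2.74e-05) with the set in the fit.

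The factors that activate the helicase divided into Cdc45, Mcm10, Gins1 and Gins2, which fell in both DEX comparisons with the set in the fit, and Gins3 and Gins4, which did not. Cdc45 stood at 32.5 and 18.3 CPM with IgE alone, 32.2 and 14 with DNP, 13.8 and 9.13 with DEX and 15.8 and 7.43 with both in PEP+/+ cells. Cdc45 in PEP-/- cells stood at 17.6 and 8.95 CPM, 14.7 and 8.64, 11.9 and 6.71 and 8.52 and 4.28 in the same order. Cdc45, the partner that the helicase needs to unwind DNA, was lower with DEX in all 8 pairs, at -0.82 (adjusted p = 0.301) without DNP and -0.80 (adjusted p = 0.000149) with the set in the fit. In PEP+/+ cells Gins2 was counted at 18.4 and 10.7 CPM with IgE, 18.9 and 8.21 with added DNP, 8.40 and 4.46 with added DEX and 10.8 and 5.81 with both agents. Values of Gins2 in PEP-/- cells were 8.83 and 5.45 CPM for IgE, 9.52 and 4.40 for DNP, 4.93 and 2.75 for DEX and 4.61 and 3.81 for both. Gins2 was lower in all 8 pairs, at -1.02 (adjusted p = 0.159) and -1.05 (adjusted p = 9.65e-05). For Mcm10 the PEP+/+ samples gave 31.2 and 17.7 CPM without further agent, 27.1 and 11.9 after DNP, 17.9 and 9.08 after DEX and 10.7 and 6.00 after both. For Mcm10 the PEP-/- samples gave 15.6 and 12.9, 13.7 and 6.99, 11 and 7.83 and 8.99 and 4.76 CPM. Mcm10, which helps to start the active helicase, was lower in all 8 pairs, at -0.73 (adjusted p = 0.332) and -0.77 (adjusted p = 0.000929). Gins4 stood at 30.9 and 22.3 CPM with IgE alone, 31.5 and 19.7 with DNP, 32.5 and 23.1 with DEX and 40.2 and 21 with both in PEP+/+ cells. Gins4 in PEP-/- cells stood at 24 and 19 CPM, 22 and 17.3, 26.2 and 21.3 and 22.2 and 18.9 in the same order. Gins4 was the 1 member higher with DEX in all 8 pairs, as were 1769 of all 13305 genes tested. Its log2 fold changes of 0.10 (adjusted p = 0.915) and 0.16 (adjusted p = 0.778) did not pass in either fit. Gins3 had -0.32 (adjusted p = 0.609) without and 0.26 (adjusted p = 0.629) with DNP.

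In PEP+/+ cells Pole2 was counted at 14.6 and 7.63 CPM with IgE, 15.7 and 5.63 with added DNP, 6.52 and 3.07 with added DEX and 5.73 and 3.19 with both agents. Values of Pole2 in PEP-/- cells were 9.56 and 5.61 CPM for IgE, 7.38 and 2.86 for DNP, 5.39 and 3.87 for DEX and 3.29 and 1.33 for both. Pole2, a subunit of the leading-strand polymerase, was lower with DEX in all 8 pairs, at -0.96 (adjusted p = 0.296) without DNP and -0.98 (adjusted p = 0.000443) with the set in the fit. For Pola2 the PEP+/+ samples gave 56 and 34.9 CPM without further agent, 49.8 and 25.4 after DNP, 43 and 30.5 after DEX and 42.3 and 23.7 after both. For Pola2 the PEP-/- samples gave 36.2 and 26.2, 32 and 20.2, 33.7 and 26.1 and 35.2 and 25.2 CPM. Pola2, a subunit of the priming polymerase, was at -0.18 (adjusted p = 0.866) without and 0.01 (adjusted p = 0.993) with DNP and passed in neither fit. Uhrf1 stood at 108 and 63.2 CPM with IgE alone, 97 and 40.6 with DNP, 53.6 and 29.1 with DEX and 31 and 25.9 with both in PEP+/+ cells. Uhrf1 in PEP-/- cells stood at 57.3 and 33.3 CPM, 50.2 and 23.2, 31.6 and 21.2 and 23 and 15.5 in the same order. Uhrf1, which recruits the maintenance methylase Dnmt1, was lower in all 8 pairs, at -0.91 (adjusted p = 0.173) and -0.91 (adjusted p = 0.000118).

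Pcna, Ccne1 and Cdc6, whose levels moved with DNP, fell with DEX as well. With the set in the fit, Pcna was at -0.89 (SE 0.11, adjusted p = 1.62e-05) without DNP and -0.76 (SE 0.10, adjusted p = 6.33e-05) with DNP. Ccne1 was at -1.35 (SE 0.19, adjusted p = 9.74e-05) and -1.28 (SE 0.23, adjusted p = 0.000708), and Cdc6 at -1.30 (SE 0.18, adjusted p = 7.4e-05) and -0.72 (SE 0.20, adjusted p = 0.0125). Orc1 passed with DNP, at -1.19 (adjusted p = 0.000735), and not without, at -0.58 (adjusted p = 0.0704), and Cdc25a was at -0.20 (adjusted p = 0.802) and 0.04 (adjusted p = 0.957) without the set in the fit.

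Over the 8 same-set pairs 26 members were lower with DEX in all 8, against 14.4% of all genes. The median difference of the 41 members lay between -0.84 and -0.32 in these pairs, and between 30 and 40 members were lower in each.

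**Figure D3:**
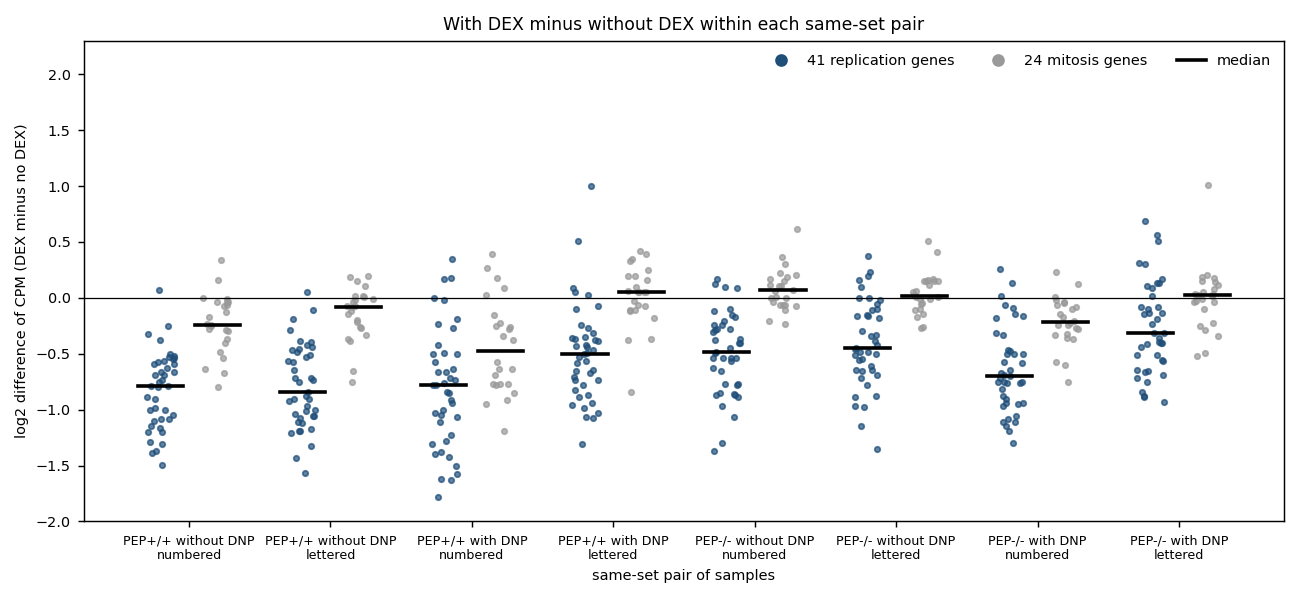
Log2 difference of CPM between the sample with DEX and the same-set sample without it, for the 41 replication genes and 24 mitosis genes, in 8 pairs. The medians (bars) of the replication genes lie between -0.84 and -0.32 and those of the mitosis genes between -0.47 and 0.07.

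In single genotypes, with the set in the fit, DEX without DNP lowered 33 members in PEP+/+ cells (7.8% of all genes) and 15 in PEP-/- cells (7.03%). With DNP the counts were 27 (9.76%) and 15 (9.33%). Without the set in the fit edgeR called 1 and 0 members without DNP, and 0 and 0 with DNP, while 12 and 5, and 11 and 4, had an unadjusted p under 0.05. Of all 13305 genes tested 1646 and 1630, and 2022 and 1868, had such a p. In PEP-/- cells the share of members was thus not above that of all genes. The median log2 fold changes with the set in the fit were -0.77 and -0.50 without DNP, and -0.70 and -0.57 with DNP. Mcm5 was at -1.20 (SE 0.15) in PEP+/+ and -0.60 (SE 0.16) in PEP-/- cells without DNP, and E2f1 at -1.16 (SE 0.17) and -1.0 (SE 0.17). The difference itself, the genotype by DEX interaction in edgeR, was called for 0 members and for 0% of all genes in either direction, in both fits. With the set in the fit its median over the members was 0.29, 36 of 41 estimates were positive, that is, toward a smaller fall in PEP-/- cells, and 8 members and 644 of all genes had an unadjusted p under 0.05. A different response of the genotypes to DEX was therefore not shown. The genotype by DNP interaction was also called for 0 members (1 with an unadjusted p under 0.05, of 143 genes in all) and 0% of all genes in edgeR.

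Loss of PEP was compared over the 4 treatments together, which asks how the absence of the phosphatase bears on these genes whatever the treatment. Whether the samples of a genotype and set came from separate cultures was not given, so they may not be independent. The set in the fit does not remove a difference between single cultures, and PEP loss cannot be told apart from such a difference. All 41 estimates were lower in PEP-/- cells, with a median of -0.59 on the log2 scale in both fits, a 1.51-fold lower level, beside a median over all genes of 0.024 and 0.023. Without the set in the fit 2 members fell and 0 rose, against 0.428% of all genes up and 1.16% down. With it 39 fell and 0 rose, against 7.72% up and 9.64% down. The 2 that did not pass were Rfc2 at -0.03 (adjusted p = 0.851) and Fen1 at -0.45 (adjusted p = 0.388). Without the set in the fit 29 members had an unadjusted p under 0.05, of 1884 genes in all.

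The members called in both fits were subunits of polymerase delta, the main lagging-strand polymerase. In PEP+/+ cells Pold2 was counted at 30.0 and 31.6 CPM with IgE, 26.6 and 21 with added DNP, 19.3 and 17.4 with added DEX and 16 and 11.7 with both agents. Values of Pold2 in PEP-/- cells were 15.5 and 14 CPM for IgE, 12.6 and 9.85 for DNP, 8.25 and 11.3 for DEX and 7.74 and 7.33 for both. Every PEP-/- sample of Pold2 lay below its same-set PEP+/+ partner, and the genotypes did not overlap among the 8 samples without DEX or among the 8 with DEX. The log2 fold change was -0.98 (SE 0.12, adjusted p = 0.006), and -0.98 (SE 0.10, adjusted p = 5.53e-05) with the set in the fit. For Pold1 the PEP+/+ samples gave 62.1 and 66 CPM without further agent, 49.2 and 47.3 after DNP, 38.9 and 47.1 after DEX and 34.5 and 34.8 after both. For Pold1 the PEP-/- samples gave 35 and 42.6, 30.6 and 26.9, 28.2 and 30.0 and 18 and 24.5 CPM. Pold1, the catalytic subunit, was also lower in all 8 pairs. The log2 fold change of Pold1 was -0.69 (SE 0.10, adjusted p = 0.0102), and the sets of this gene differed by 0.12 (adjusted p = 0.185).

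Below these in the order of p came Orc6, Tyms and Rpa2, at log2 fold changes of -0.66 (adjusted p = 0.062), -0.64 (adjusted p = 0.0657) and -0.69 (adjusted p = 0.0697), which passed with the set in the fit at adjusted p of 0.000607, 0.000139 and 0.000528. All of them were lower in PEP-/- cells in all 8 pairs.

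By size, with the set in the fit, the lowest log2 fold changes with PEP loss were those of Ccne1 at -1.10 (SE 0.15, adjusted p = 0.000293) and Cdc6 at -1.04 (SE 0.13, adjusted p = 0.000194). Cdc6 lay at 3.00 to 21.7 CPM (median 7.20) in PEP+/+ and 1.81 to 7.65 CPM (median 3.44) in PEP-/- samples, ranges that overlap, and was lower in all 8 pairs. Ccne2 stood at 25 and 8.24 CPM with IgE alone, 18.4 and 5.51 with DNP, 10.9 and 3.83 with DEX and 8.72 and 2.44 with both in PEP+/+ cells. Ccne2 in PEP-/- cells stood at 11.8 and 2.98 CPM, 9.35 and 2.04, 4.25 and 2.85 and 5.55 and 2.19 in the same order. Ccne2, the cyclin E2 gene, had the widest set difference of the members, -1.63, and a log2 fold change with PEP loss of -0.97 (adjusted p = 0.000491) with the set in the fit and -0.95 (adjusted p = 0.439) without it. In PEP+/+ cells Cdc25a was counted at 22.4 and 18.4 CPM with IgE, 17.7 and 14.6 with added DNP, 17.9 and 11 with added DEX and 12.4 and 13.9 with both agents. Values of Cdc25a in PEP-/- cells were 11.9 and 8.90 CPM for IgE, 13 and 7.60 for DNP, 13.5 and 8.75 for DEX and 15.6 and 11 for both. Cdc25a, the phosphatase that activates cyclin-dependent kinases at G1/S, was lower in 7 of 8 pairs, at -0.52 (adjusted p = 0.00353) with the set in the fit.

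All 4 nucleotide supply genes fell with the set in the fit and none without it. For Tyms the PEP+/+ samples gave 96.5 and 90.7 CPM without further agent, 108 and 72.9 after DNP, 59.7 and 48.2 after DEX and 76.7 and 46.3 after both. For Tyms the PEP-/- samples gave 60.0 and 46.6, 72.5 and 44.3, 41.1 and 33.8 and 44.7 and 37.6 CPM. Tyms, thymidylate synthase, was at -0.64 (adjusted p = 0.000139) with the set in the fit. Tk1 stood at 66.7 and 39 CPM with IgE alone, 52.2 and 25 with DNP, 45.6 and 28.9 with DEX and 38.8 and 18.4 with both in PEP+/+ cells. Tk1 in PEP-/- cells stood at 37 and 27.1 CPM, 32.7 and 15.7, 27.9 and 20.0 and 20.7 and 11.7 in the same order. Tk1, thymidine kinase, was at -0.69 (adjusted p = 0.00016) and like Tyms was lower in all 8 pairs. Rrm1 and Rrm2, the subunits of ribonucleotide reductase, were at -0.55 (adjusted p = 0.000179) and -0.74 (adjusted p = 5.53e-05).

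In PEP+/+ cells Pola1 was counted at 59.3 and 20.4 CPM with IgE, 67.7 and 23 with added DNP, 29.6 and 15.4 with added DEX and 21.7 and 17.8 with both agents. Values of Pola1 in PEP-/- cells were 34.2 and 14.5 CPM for IgE, 40.9 and 18.2 for DNP, 26.2 and 12.9 for DEX and 24.7 and 12.2 for both. Pola1, the catalytic subunit of the priming polymerase, was lower in 7 of 8 pairs, at -0.42 (adjusted p = 0.0207) with the set in the fit. For Pole the PEP+/+ samples gave 41 and 25.3 CPM without further agent, 35.4 and 20.9 after DNP, 24.4 and 16.9 after DEX and 13.2 and 15.9 after both. For Pole the PEP-/- samples gave 23.1 and 14.7, 16.7 and 12.8, 20.5 and 12.9 and 11.7 and 11.9 CPM. Pole, the catalytic subunit of the leading-strand polymerase, was lower in all 8, at -0.59 (adjusted p = 0.00251). Fen1 stood at 3.38 and 0.867 CPM with IgE alone, 2.27 and 0 with DNP, 1.96 and 0.547 with DEX and 0.781 and 0.4997 with both in PEP+/+ cells. Fen1 in PEP-/- cells stood at 1.55 and 1.23 CPM, 1.31 and 0.385, 1.19 and 0.509 and 0.782 and 0.190 in the same order. Fen1, which trims the flaps of Okazaki fragments, was lower in 5 of 8 pairs and did not pass in either fit. It had the fewest counts of the members, and the part of these low counts in the result was not tested.

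In all 8 same-set pairs 30 members were lower in PEP-/- cells, against 7.67% of all genes. In at least 7 of the 8 pairs 39 members were lower, and the share of all genes was not computed for this looser count. Rfc2 was lower in 2 and Fen1 in 5. The median difference of the 41 members was -0.87 and -0.71 with IgE (numbered and lettered pair), -0.79 and -0.69 with DNP, -0.42 and -0.33 with DEX and -0.56 and -0.40 with both.

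**Figure D4:**
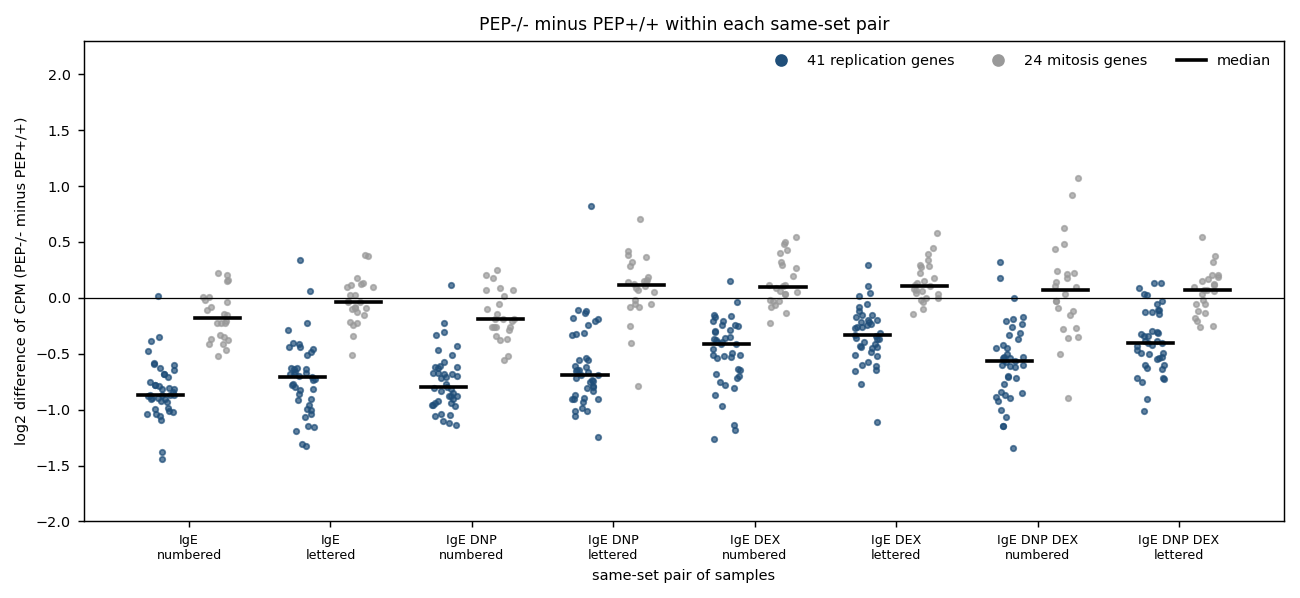
Log2 difference of CPM between the PEP-/- and the PEP+/+ sample of the same set, for the 41 replication genes and 24 mitosis genes, in 4 treatments and 2 sets. The medians (bars) of the replication genes lie between -0.87 and -0.33 and those of the mitosis genes between -0.19 and 0.11.

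In single treatments, with the set in the fit, 23 members were called lower with IgE alone (1.39% of all genes), 19 with DNP (1.56%), 0 with DEX (0.338%) and 0 with both agents (0.00752%, or 1 gene). With DEX and with both agents 21 and 25 members had an unadjusted p under 0.05 in that edgeR fit, of 1554 and 1426 genes in all. Without the set in the fit edgeR called 0 members in each of the 4 treatments, and 11, 9, 2 and 2 had an unadjusted p under 0.05. Of all 13305 genes tested 528, 605, 385 and 298 had such a p, in the same order. Mcm5, for example, had log2 fold changes of -1.04 (SE 0.15) with IgE, -0.87 (SE 0.15) with DNP, -0.44 (SE 0.16) with DEX and -0.64 (SE 0.16) with both. The difference between the genotype effects without and with DEX is the genotype by DEX interaction given above, which was called for 0 genes.

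**Figure D5:**
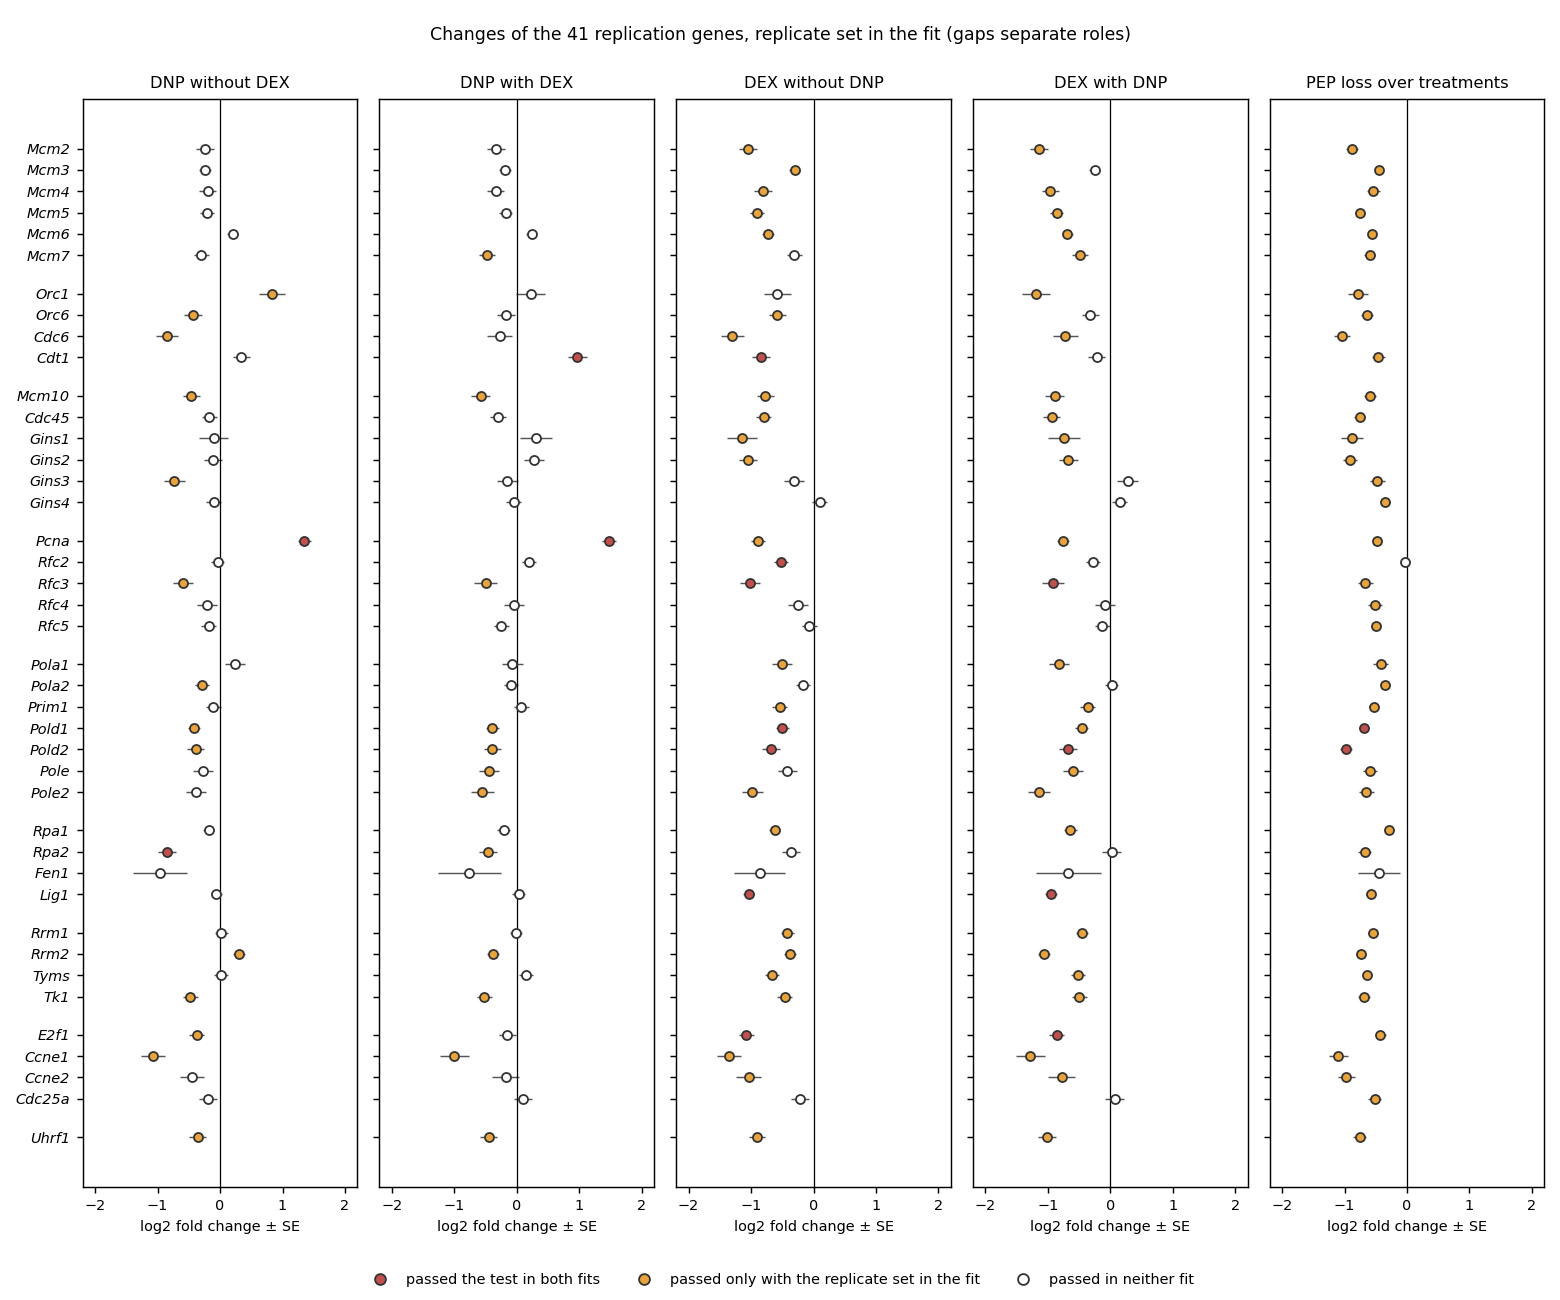
Log2 fold change with its SE, from the fit with the set, for the 41 genes in rows by role and the 5 comparisons in panels, coloured by the fits in which the gene passed the test. All points of the PEP panel and 40 of 41 of the panel for DEX without DNP lie below 0, and Pcna is the rightmost point of both DNP panels at 1.35 and 1.48.

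Marker levels of other cells stood beside these differences as follows. Macrophage and monocyte markers (7 genes) summed to 28.4 to 54.4 CPM in PEP+/+ and 33 to 101 CPM in PEP-/- samples, and to 38.9 to 101, 42.8 to 93.3, 28.4 to 52.8 and 36.3 to 59.7 CPM with IgE, DNP, DEX and both. Of these genes Ccr2 and Cd68 reached 751 and 661 counts in a sample, while Csf1r and Mrc1 had at most 11 and 1. Neutrophil and progenitor markers summed to 0.562 to 13.2 CPM in PEP+/+ and 1.05 to 4.19 CPM in PEP-/- samples. Among them Ctsg stood at 7.62 to 11.7 CPM in the numbered PEP+/+ samples and 0.312 to 2.297 CPM in the rest, while Mpo and Elane, defining genes of that list, had at most 2 counts in a sample. Mast cell markers summed to 63200 to 72300 CPM with IgE, 69500 to 85500 with DNP, 70500 to 77800 with DEX and 80600 to 104000 with both. The part of other cells, and of the sets, in the results was not tested.

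Other genes of the replication machinery formed a list of 40, with further subunits, fork protection factors, histone chaperones and nucleotide enzymes. With PEP loss 0 were called in edgeR without the set in the fit, and with it 23 fell and 1 rose, at medians of -0.42 and -0.41 without and with the set. Among those that fell were the chromatin remodeller Hells at -1.04 (adjusted p = 7.71e-05) and the histone chaperone Nasp at -0.63 (adjusted p = 0.000351), and Pold4 rose, at 0.37 (adjusted p = 0.00868). The shares of all genes with PEP loss were 0.428% up and 1.16% down, or 7.72% and 9.64% with the set in the fit.

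With DEX, 2 genes of this list fell in each comparison without the set in the fit, Pole4 at -0.87 (adjusted p = 0.0169) and -0.83 (adjusted p = 0.021) and Rpa3 at -0.80 (adjusted p = 0.0401) and -0.97 (adjusted p = 0.0163), without and with DNP. With the set in the fit 18 fell and 1 rose without DNP, and 16 fell and 2 rose with DNP. With DNP in the absence of DEX 3 fell and 0 rose, Orc5 at -0.81 (adjusted p = 0.0118), Cdc7, the kinase that fires origins, at -1.04 (adjusted p = 0.0338) and Chaf1b at -0.47 (adjusted p = 0.0443). With DEX present 3 fell and 1 rose. These were Ticrr at -1.82 (adjusted p = 0.024), Atad2 at -1.17 (adjusted p = 0.0254), Rrm2b at -0.85 (adjusted p = 0.0413) and, upward, Dut, which clears dUTP, at 0.89 (adjusted p = 0.0351). With the set in the fit 16 fell and 0 rose without DEX, and 17 fell and 1 rose with DEX. The shares of all genes that fell with DEX were 3.98% without and 4.99% with DNP, or 13.8% and 17.4% with the set in the fit. Those that fell with DNP were 7.58% without and 5.42% with DEX, or 19.3% and 19.2% with the set in the fit. The shares that rose were given above with the members.

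A list of 29 G1/S control genes, of which 28 passed the filter (Cdkn1c did not), also held genes that responded to antigen. Cdkn1a encodes p21, an inhibitor of cyclin E kinase that also binds PCNA. In PEP+/+ cells Cdkn1a was counted at 157 and 178 CPM with IgE, 675 and 983 with added DNP, 222 and 202 with added DEX and 392 and 507 with both agents. Values of Cdkn1a in PEP-/- cells were 112 and 144 CPM for IgE, 536 and 725 for DNP, 187 and 192 for DEX and 339.6 and 459 for both. Every DNP sample of Cdkn1a lay above every sample without DNP. For Cdkn1a the log2 fold change was 2.31 (SE 0.18, adjusted p = 1e-05) without DEX and 1.08 (SE 0.18, adjusted p = 0.00241) with DEX. Cdkn1b, which encodes the p27 inhibitor, fell, at -0.99 (adjusted p = 0.00448) and -0.71 (adjusted p = 0.0322), and Myc rose, at 1.55 (adjusted p = 0.00149) and 1.59 (adjusted p = 0.00192). Mycn and Cdkn2b rose as well, at 2.86 and 3.38 without DEX and 3.08 and 1.67 with DEX.

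In all, 4 genes of this list rose and 5 fell with DNP without DEX, and 4 rose and 2 fell with DEX present, while with the set in the fit 5 rose and 12 fell in each. The others that fell without DEX were Ccnd3 at -0.48 (adjusted p = 0.0309), E2f8 at -1.40 (adjusted p = 0.0432), Skp2 at -1.02 (adjusted p = 0.0425) and Cdkn2c at -0.86 (adjusted p = 0.0474), and with DEX present E2f8 at -1.49 (adjusted p = 0.043). The cyclin D genes Ccnd2 and Ccnd1 were at 0.81 (adjusted p = 0.227) and -0.25 (adjusted p = 0.877) without DEX, and Ccnd2 passed with the set in the fit, at 0.82 (adjusted p = 0.00195). Of all genes 9.07% rose and 7.58% fell with DNP without DEX, and 7.19% rose and 5.42% fell with DEX present. With the set in the fit these shares were 18.6% and 19.3%, and 18.4% and 19.2%.

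With DEX in the absence of DNP, 0 genes of this list passed in edgeR without the set in the fit, and 3 rose and 8 fell with it. Those that rose were Rbl2 at 0.95 (adjusted p = 0.000141), Tfdp2 at 0.55 (adjusted p = 0.000901) and Cdkn1a at 0.47 (adjusted p = 0.00599), and the 3 with the smallest p among those that fell were Rbl1 at -0.92 (adjusted p = 0.000124), E2f8 at -0.67 (adjusted p = 0.00226) and Cdk2 at -0.55 (adjusted p = 0.00347). With DNP 3 fell without the set in the fit, Cdkn1a at -0.77 (adjusted p = 0.0176), Cdk6 at -1.49 (adjusted p = 0.0478) and Rb1, the retinoblastoma gene, at -0.50 (adjusted p = 0.049), and 3 rose and 9 fell with it. The cyclin D genes act ahead of E2F. Without DNP and without the set in the fit they were at -0.75 (adjusted p = 0.358) for Ccnd2, -0.42 (adjusted p = 0.0819) for Ccnd3 and 0.54 (adjusted p = 0.75) for Ccnd1, which did not exceed 2.21 CPM in any sample. The sets of Ccnd2 lay -0.83 apart on the log2 scale. Its samples stood at 145.2 to 333.1 CPM with IgE and 76.4 to 226.5 CPM with added DEX. Cdkn1b and Myc were at 0.16 (adjusted p = 0.804) and -0.18 (adjusted p = 0.843). Of all genes 5.4% rose and 3.98% fell with DEX in the absence of DNP, or 12.9% and 13.8% with the set in the fit. In the presence of DNP 5.67% rose and 4.99% fell, or 15.9% and 17.4% with the set in the fit.

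With PEP loss 0 genes of the G1/S control list were called in edgeR without the set in the fit, and 2 rose and 14 fell with it. Those that rose were Cdkn1b at 0.32 (adjusted p = 0.0115) and Rbl2 at 0.36 (adjusted p = 0.022). E2f2 had -0.88 (adjusted p = 0.000103), Cdk4 -0.40 (adjusted p = 0.00082), Myc -0.74 (adjusted p = 0.00153), Ccnd3 -0.27 (adjusted p = 0.0132) and Cdkn1a -0.28 (adjusted p = 0.0249), while Ccnd2 and Ccnd1 did not pass, at -0.23 (adjusted p = 0.218) and 0.45 (adjusted p = 0.428). Of all genes 0.428% rose and 1.16% fell with PEP loss, or 7.72% and 9.64% with the set in the fit.

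Genes of G2 and M phase, 24 in all, among them Mki67, Ccnb1 and Plk1, are set beside the S-phase genes because they are expressed in the same cycling cells at a later stage. With PEP loss their median log2 fold change was 0.02 in both fits and 0 were called in edgeR without the set in the fit. With it 3 rose, Cenpf at 0.45 (adjusted p = 0.00613), Cenpe at 0.37 (adjusted p = 0.0139) and Ccnb2 at 0.21 (adjusted p = 0.0489), and 1 fell, Cdk1 at -0.28 (adjusted p = 0.0105). With DEX in the absence of DNP the median was -0.08, 0 were called, and with the set in the fit 2 fell, Cdk1 at -0.52 (adjusted p = 0.00077) and Ndc80 at -0.44 (adjusted p = 0.0143), and 1 rose, Prc1 at 0.41 (adjusted p = 0.0108). With DNP the median was -0.17 and 1 fell, Cdk1 at -0.73 (adjusted p = 0.0189), or 4 with the set in the fit. Of all genes, with the set in the fit, 7.72% rose and 9.64% fell with PEP loss. With DEX 12.9% rose and 13.8% fell without DNP, and 15.9% rose and 17.4% fell with it. Without the set in the fit the shares that fell were 1.16%, 3.98% and 4.99% in the same order.

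Antigen was compared in the same way for the mitosis genes. Without DEX 2 fell, Plk1 at -0.87 (adjusted p = 0.00837) and Aurka at -1.04 (adjusted p = 0.0314), and with DEX present 3 fell, Plk1 at -1.05 (adjusted p = 0.00412), Aurka at -1.15 (adjusted p = 0.026) and Cenpf at -0.65 (adjusted p = 0.0284). In the fit with the set 9 and 16 fell and 0 rose. The shares of all genes that fell, given above, were 7.58% and 5.42% without and 19.3% and 19.2% with the set in the fit. In the lettered set 18 of the 24 were lower, with a median of -0.45. The difference between the S-phase and the mitosis genes was not itself tested.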

How the data were processed

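Poly(A) RNA of 16 BMMC samples was sequenced from TruSeq stranded libraries as paired reads. Reads were mapped to GRCm38 (TopHat2) and assigned to Ensembl genes (HTSeq) by the authors, and the deposited values are raw counts per gene, 1 table per sample, with bcl2fastq, TopHat2, HTSeq and DESeq2 named in the submitters' processing notes. Their versions are not repeated here, the strand setting of the counting was not given in the sources used here, and 5 rows that name no gene (29.05% to 49.62% of all counted reads) were left out. Gene totals were 8612531 to 22143526 (median 12814043.5). Symbols and positions came from GENCODE M21 (37693 of 39179 identifiers, 96.21%), and promoter windows from RefSeq, GRCm38.p6.

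Counts were analysed in R 4.3.3 with edgeR 4.0.16, using TMM normalization, filterByExpr with a minimum count of 10, and the quasi-likelihood test with 1 mean per condition over all 16 samples (8 residual degrees of freedom). Treatment effects were averaged over both genotypes and PEP loss over the 4 treatments. P-values were adjusted by Benjamini-Hochberg over all 13305 genes tested, and an adjusted p under 0.05 counted as passed. The SE of a log2 fold change was derived from its F statistic. Figures were drawn with matplotlib 3.10.9. CPM used TMM-scaled totals, and log2 differences within pairs a pseudocount of 0.5 CPM.

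A second fit added the replicate set (numbered or lettered) as a block, leaving 7 residual degrees of freedom. Over all genes tested, deviations from the condition means were correlated between samples of the same set in all 28 pairs of conditions (lowest 0.454, median 0.758). Over the members alone these correlations lay between -0.037 and 0.884. The labels do not say what the sets share. The alternatives were DESeq2 1.42.0, its size factors, other filters, other designs, single sets and leaving out each sample. The scripts were tested on simulated data.

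The members, gene lists and rules were chosen with earlier results of these data known. Named by rule were a fixed set of 25 members, the 5 members with the smallest p in each direction of each main comparison, and up to 3 called genes per direction of each further list (other replication genes, G1/S control, mitosis, and marker lists as sums). Ptpn22, Tsc22d3 and Fkbp5 checked the labels, and Cdkn1a, Cdkn1b, Cdkn1c, Myc and the cyclin D genes were given whatever their values. A gene of the list of other replication genes that the rule names is not reported here. Comparisons that share samples are set side by side in places, but they are not independent and were not tested against each other.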

Additional observations from a re-analysis of the deposited data

Results flagged for a closer look

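The response of Rrm2 to DNP was called different between cells without and with DEX by a test of the difference itself, with the replicate set in the fit (log2 -0.68, SE 0.14, adjusted p = 0.0281, edgeR quasi-likelihood test). DESeq2 gave -0.67 (adjusted p = 0.0022) in the same design, the stricter filter -0.68 (adjusted p = 0.0273) and DESeq2 size factors -0.67 (adjusted p = 0.0286). With 1 sample left out it lay between -0.74 and -0.55 and stayed past the threshold in 4 of 16 fits, those without PEP+/+ IgE DNP replicate 2, PEP+/+ IgE DNP DEX replicate 1 or 2, or PEP-/- IgE DNP replicate 2. Leaving out any of the other 12 samples ended the call, at adjusted p between 0.0507 and 0.132. Without the set in the fit it was not called.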

How the results depend on the processing

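The medians of the 41 members kept their direction in the 5 main comparisons under every alternative run, while the number of members called depended on how the replicate sets were handled. With the replicate block in place of no block, the members called, in both directions, went from 2 to 16 for DNP without DEX, from 2 to 14 for DNP with DEX, from 7 to 30 for DEX without DNP, from 4 to 29 for DEX with DNP, from 2 to 39 for PEP loss and from 0 to 1 for the DNP by DEX interaction. In the same order of the 5 main comparisons, the numbered samples alone gave 5, 4, 22, 29 and 34, and the lettered samples alone 22, 10, 26, 20 and 31. Without a filter on low counts 19 were called for DEX without DNP, 17 for DEX with DNP and 25 for PEP loss, and with at least 10 counts in every sample 4 for PEP loss. DESeq2 called 4 for DNP without DEX, 8 for DEX with DNP and 11 for PEP loss, and an additive design 4, 8 and 9. With only the conditions compared in the fit, 1 was called for each of DNP without DEX, DNP with DEX and DEX with DNP. The causes of these differences were not tested.

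With 1 sample left out and no block, the counts ranged from 0 to 3 for DNP without DEX, 0 to 2 for DNP with DEX, 1 to 7 for DEX without DNP, 0 to 6 for DEX with DNP and 2 to 4 for PEP loss. For DEX with DNP 0 were called without PEP+/+ IgE DNP replicate 1 or PEP-/- IgE DNP replicate 1, and 1 without PEP+/+ IgE DNP DEX replicate 2 or PEP-/- IgE DNP DEX replicate 1 or 2. For DEX without DNP, leaving out any of the 8 IgE and IgE DEX samples gave 1 to 3, with the 1 without PEP+/+ IgE DEX replicate 2. For DNP with DEX 0 were called without PEP-/- IgE DEX replicate 2, and 1 without PEP+/+ IgE DNP DEX replicate 1 or PEP+/+ IgE DEX replicate 2. For DNP without DEX, 8 samples gave 0 or 1, and for PEP loss 4 were called without PEP+/+ IgE DNP DEX replicate 2. With the replicate block, alternatives chosen after seeing the data, the ranges were 9 to 21, 6 to 16, 26 to 33, 22 to 31 and 37 to 39. The lowest counts for DNP without DEX, 9 and 10, came without PEP-/- IgE replicate 2, PEP-/- IgE DNP replicate 2, PEP+/+ IgE replicate 1 or 2 or PEP+/+ IgE DNP replicate 2. For DNP with DEX 6, 7 and 8 came without PEP-/- IgE DNP DEX replicate 1, PEP-/- IgE DEX replicate 2 and PEP+/+ IgE DEX replicate 2.

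Signs were followed for the members named in each comparison, and none that was called changed sign. For DNP without DEX the log2 fold changes of Mcm2, Mcm5, Gins2 and Lig1 turned to 0.01, 0.03, 0.07 and 0.05 in the numbered samples alone, and that of Tyms to -0.23 in the lettered samples. For DNP with DEX Orc1 and Pola1 turned to -0.01 and 0.10 in the lettered samples, and Lig1, Ccne2 and Cdc25a to -0.07, 0.03 and -0.09 in the numbered samples. For DEX with DNP Rpa2 turned to 0.02 with the replicate block, 0.39 in the lettered samples and 0.01 with only the conditions compared, Fen1 to 0.64 in the lettered samples, and Cdc25a and Pola2 to -0.07 and -0.04 in the numbered samples. For PEP loss Fen1 turned to 0.25 in the lettered samples.

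With 1 sample left out, the sign was not stable for 10 of the members named for DNP without DEX, over ranges of -0.55 to 0.06 (Mcm2), -0.53 to 0.10 (Mcm5), -0.12 to 0.51 (Mcm6), -0.53 to 0.12 (Cdc45), -0.44 to 0.16 (Gins2), -0.27 to 0.72 (Pola1), -0.21 to 0.09 (Lig1), -0.08 to 0.67 (Rrm2), -0.17 to 0.19 (Tyms) and -1.17 to 0.22 (Ccne2). For DNP with DEX the ranges were -0.42 to 0.08 (Mcm5), -0.01 to 0.53 (Mcm6), -0.61 to 0.02 (Cdc6), -0.12 to 0.55 (Orc1), -0.41 to 0.16 (Pola1), -0.11 to 0.18 (Lig1), -0.02 to 0.34 (Tyms), -0.32 to 0.03 (E2f1), -0.71 to 0.31 (Ccne2), -0.10 to 0.26 (Cdc25a) and -0.02 to 0.58 (Gins1). For DEX without DNP it was -0.03 to 0.23 (Gins4), and for DEX with DNP -0.20 to 0.28 (Rpa2), -1.46 to 2.72 (Fen1), -0.11 to 0.28 (Cdc25a), -0.09 to 0.37 (Gins4) and -0.21 to 0.31 (Pola2). For PEP loss it was -0.81 to 1.27 (Fen1). Fen1 had the fewest counts of the members, a median of 11.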
